A study of Mus musculus with 6 samples.

Results

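MicroRNA genes made up 643 of the 27095 gene windows counted in an ATAC-seq study of the mouse thymus. ATAC-seq uses the transposase Tn5 to cut and tag open chromatin, so the number of reads in a window reports how accessible that DNA was. The microRNA windows were all rows whose symbol is Mir or Mirlet followed by a digit, leaving out host gene rows whose symbol ends in hg. The cells were epithelial cells of the thymic medulla that carry much MHC class II (MHCII-high), called mTECs below, which display tissue antigens to developing T cells. Libraries came from 3 biological replicates of wildtype mice and 3 of Kat7 knockout mice, all on the C57BL/6 background. KAT7 is an acetyltransferase that modifies histones, best known for lysine 14 of histone H3. The sources used here do not give whether a replicate pools animals, the promoter or cell type that drove the deletion, the deleted part of Kat7, or the age and sex of the mice.

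A microRNA gene is transcribed as a long primary transcript, often as part of the intron of a host gene or as a cluster of several microRNAs. The Drosha complex cuts out a hairpin, Dicer cuts the hairpin to a short duplex, and one strand guides Argonaute to messenger RNAs. Pairing rests mainly on the seed, bases 2 to 8 of the mature microRNA, so microRNAs with the same seed are grouped as a family. Loss of Dicer from thymic epithelium is known to disturb the medulla, which gives microRNAs a place in the biology of these cells.

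The mature sequences below, from RefSeq on build GRCm38.p6, are the ones that identify the families described in the results. Capitals mark the seed. They are shown because several of them are encoded at more than 1 locus, so that the same mature product can be followed through separate windows. In all, 552 of the 643 windows matched at least 1 mature sequence.
miR-9-5p: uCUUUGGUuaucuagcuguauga
miR-196a-5p: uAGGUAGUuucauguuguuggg
miR-196b-5p: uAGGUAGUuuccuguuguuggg
miR-138-5p: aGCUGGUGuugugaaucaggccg
miR-199a-3p: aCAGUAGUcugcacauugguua
miR-344-3p: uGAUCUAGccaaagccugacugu
miR-193a-3p: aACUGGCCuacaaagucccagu
miR-193b-3p: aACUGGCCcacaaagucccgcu
miR-200b-3p: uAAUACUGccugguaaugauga
miR-200c-3p: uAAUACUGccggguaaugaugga
miR-429-3p: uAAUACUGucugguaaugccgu
miR-200a-3p: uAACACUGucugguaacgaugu
miR-141-3p: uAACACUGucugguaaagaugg
miR-125b-5p: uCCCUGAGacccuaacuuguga
miR-351-5p: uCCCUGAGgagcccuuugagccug
let-7i-5p: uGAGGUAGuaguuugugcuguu
miR-346-5p: uGUCUGCCcgagugccugccucu
miR-1936: uAACUGACcugcugugaacuggc

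Each window began 3000 bases upstream of the hairpin and ended with it, for 524 of the 525 windows that matched a RefSeq hairpin. The windows were 3049 to 3134 bases long. They therefore measured the DNA just upstream of the hairpin, which is the promoter of the primary transcript for some microRNAs and an intron of the host gene for others. Of the 643, 334 shared at least 1 base with another window and 165 of these overlapped the window of a gene that is no microRNA. Of the 154 windows lying wholly inside others, 151 had 0 counts in all 6 libraries, so reads in shared stretches seem not to have been counted and an overlapping window reported only its unshared part. There were 68 clusters of windows no more than 10 kb apart, holding 277 members, and 366 members lay in no cluster. A further annotated gene surrounded 459 of the hairpins, 390 of them on the hairpin's own strand.

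Library totals lay between 15482439 and 19832326 counts. Levels are given in CPM, counts scaled to a common library size with TMM factors, as the mean ± SD of n = 3 libraries, and log2FC is the log2 ratio of knockout to wildtype, given with its standard error (SE). A call means a Benjamini-Hochberg adjusted p under 0.05 over all windows, from edgeR's quasi-likelihood test, and every adjusted p below comes from it. The Kat7 window held 267 ± 26.5 CPM in wildtype, against 21.2 ± 14.9 CPM in knockout (log2FC -3.66, SE 0.57, adjusted p 0.0143), with no overlap between groups. Of 17 mTEC marker windows, 0 were lower and 1, Krt5, was higher, and their summed level was 3097 to 3169 CPM in wildtype, against 2828 to 3422 CPM in knockout. Of the 7 B cell markers, 5 were lower, with sums of 128 to 131 CPM in wildtype, against 62.9 to 65.2 CPM in knockout. Thymocyte markers summed to 113 to 125 CPM and 133 to 143 CPM, with 2 of 10 tested higher. Myeloid markers summed to 234 to 244 CPM and 244 to 297 CPM (3 of 9 lower, 1 higher), mesenchymal markers to 127 to 134 CPM and 110 to 111 CPM (3 of 7 lower, 2 higher), endothelial markers to 92.9 to 96.7 CPM and 82.3 to 87.2 CPM (3 of 7 lower, 1 higher), and erythroid markers to 139 to 151 CPM and 109 to 126 CPM (3 of 7 lower). Over all tested windows, 20.2% were lower and 6.36% higher. By mean CPM, the median B cell and mesenchymal markers lay in the quartile with 43.8% of all windows lower and 9.22% higher. The median thymocyte, myeloid, endothelial and erythroid markers lay in the quartile with 32.0% and 4.77%, and the median mTEC marker in that with 3.87% and 9.36%. The part of these cells in the microRNA results was not tested.

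MicroRNA windows took 0.406%, 0.428% and 0.432% of all counts in the wildtype libraries and 0.375%, 0.399% and 0.402% in the knockout libraries. The filter on low counts passed 394 of the 643, and 249 were not tested, among them the 154 wholly inside others. The tested windows had a median level of 2.47 CPM, against 10.1 CPM over all tested windows. CPM is not scaled by length, and windows of longer genes also take in 2000 bases after the gene start. The part of window length in this gap was not tested. In knockout, 68 of the 394 (17.3%) were lower and 19 (4.82%) were higher, while 307 did not pass. Over all 24817 windows tested, 20.2% were lower and 6.36% were higher, so the share of microRNA windows called was near the background in both directions. The median log2FC was -0.04 for microRNA windows and 0.04 for all windows. In bulk chromatin, fewer open copies per cell and fewer cells with the site open cannot be told apart.

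Of the 68 lower windows, 67 had all knockout libraries below all wildtype libraries, and 17 of the 19 higher windows were separated the other way. Over all windows, 97.6% of those called lower and 87.9% of those called higher were separated in this way. Called or not, 25.4% of tested microRNA windows were separated downwards and 10.2% upwards, near the 24.6% and 13.5% of all tested windows. Among called microRNA windows, 26 were lower by at least 2-fold and 4 were higher by that size, which is 6.60% and 1.02% of those tested, against 7.28% and 0.89% over all windows. Calls depended on how open a window was, as they did across the genome. Quartiles of accessibility were taken on mean CPM, with no scaling by window length. Among the 166 microRNA windows in the lowest quartile of accessibility, 3 were lower and 0 higher. That quartile as a whole had 1.13% and 2.08%. In the next quartile 34 of 153 were lower and 9 higher, against 32.0% and 4.77%. In the one above it 30 of 60 were lower and 5 higher, against 43.8% and 9.22%. In the most open quartile 1 of 15 was lower and 5 were higher, against 3.87% and 9.36%.

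Knockout library 1 stood apart from the other knockout libraries. The median log2 ratio of a knockout library to the wildtype mean over tested microRNA windows was -0.28 in library 1, -0.02 in library 2 and 0.03 in library 3. Without knockout library 1, 80 of 413 tested microRNA windows were lower (19.4%) and 36 higher (8.72%), against 22.6% and 12.6% of all windows. Using only libraries 2 and 3 of both groups, 78 of 409 were lower (19.1%) and 28 higher (6.85%), against 22.6% and 10.6% of all windows. A loess normalisation, which removes the trend of the fold change with accessibility, gave 57 lower (14.5%) and 51 higher (12.9%), of which 42 and 19 were also called by TMM. Over all windows the same setting gave 21.0% lower and 19.2% higher. The share of calls that were higher was 21.8% with TMM and 47.2% with loess, so the balance between falls and rises depended on the scaling, in all windows as in microRNA windows.

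**Figure D1:**
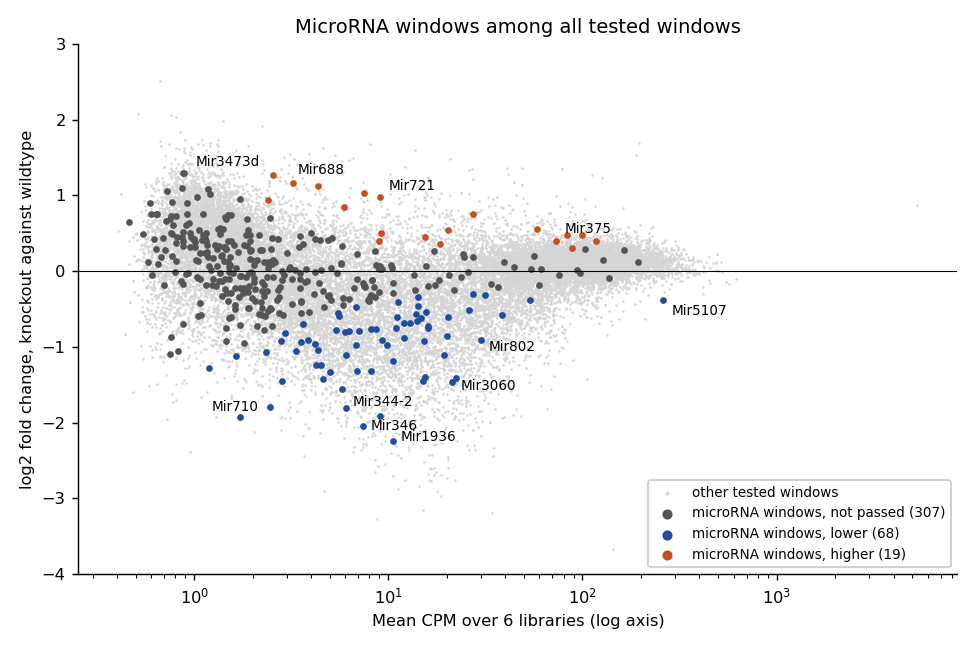
Each point is 1 tested window, placed by its mean CPM over 6 libraries (log axis) and its log2FC. Grey dots are other windows, and the 68 lower (blue) and 19 higher (orange) microRNA windows lie mostly between 1 and 100 CPM.

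Among the 10 deepest falls, the top 4 lay inside another gene. Mir1936 (chr12:102684928-102688020, mm10), inside Itpk1, which encodes an inositol phosphate kinase, held 16.7, 17.0 and 18.5 CPM in wildtype, against 2.18, 2.99 and 5.93 CPM in knockout. The 2 groups were far apart, and the log2FC was -2.24 (SE 0.16, adjusted p 8.04e-42), the largest fall of all microRNA windows. Mir346 (chr14:34891609-34894706), inside the glutamate receptor gene Grid1, held 13.6, 10.5 and 11.5 CPM in wildtype, against 1.95, 2.09 and 4.65 CPM in knockout. Its groups did not overlap either, with a log2FC of -2.04 (SE 0.18, adjusted p 5.03e-27). Mir3105 (chr7:144006254-144009338), inside the synaptic scaffold gene Shank2, fell from 14.3 ± 1.74 to 3.79 ± 0.79 CPM (log2FC -1.92, SE 0.17, adjusted p 4.91e-29). In the windows of Mir1936, Mir346 and Mir3105 no base was shared with another window.

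Mir344-2 on chromosome 7 went from 9.47 ± 0.99 to 2.70 ± 0.41 CPM, a log2FC of -1.81. Mir710 on chromosome 8, outside other genes, had 3.02 to 4.61 CPM in wildtype, against 0.63 to 1.47 CPM in knockout, a log2FC of -1.80. Mir3080, inside the transcriptional regulator gene Tcf20, fell from 8.58 ± 1.58 to 2.91 ± 0.31 CPM (log2FC -1.56). In all 3 the knockout libraries lay below the wildtype libraries. Mir874, inside Klhl3, an adaptor of a ubiquitin ligase, held 20.8, 21.3 and 23.8 CPM in wildtype, against 6.19, 7.17 and 10.8 CPM in knockout (log2FC -1.45). Mir3060, whose window overlaps that of Rnf215 over 25.9% of its length, went from 31.4 ± 1.13 to 11.3 ± 0.72 CPM (log2FC -1.47). Mir3073a, with 79.3% of its window shared with Aspg, had a log2FC of -1.92 on 0.72 ± 0.38 CPM in knockout. The 10 deepest falls, which also include Mir124a-2, were called lower in every alternative setting that tested them. The other 58 lower windows had log2FC values between -1.42 and -0.30.

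**Figure D2:**
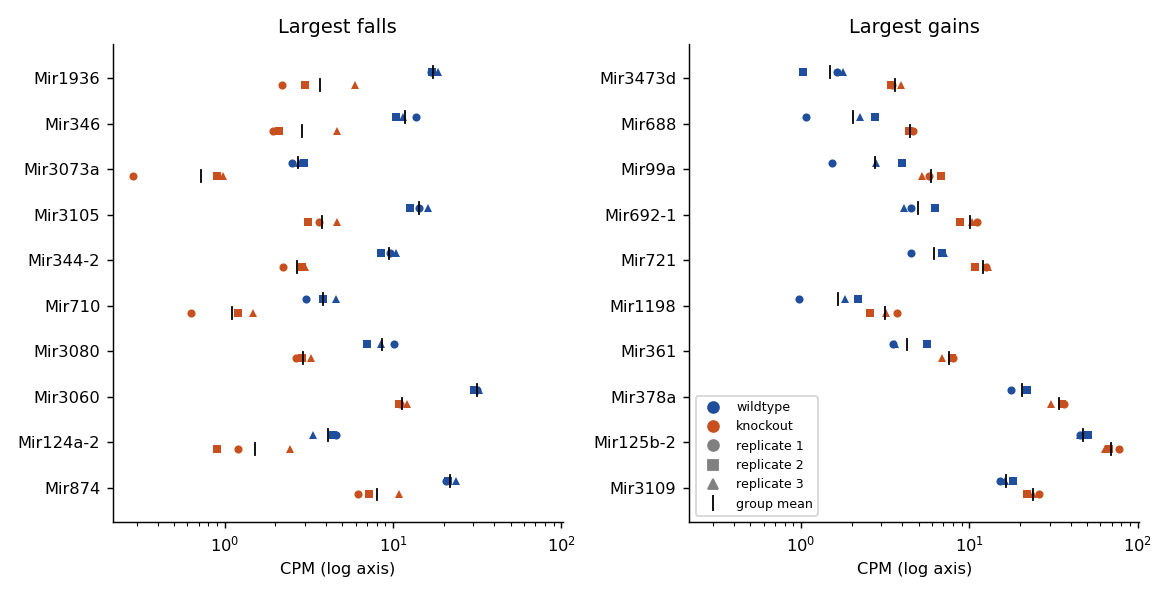
CPM in each library (log axis) of the 10 microRNA windows with the largest falls and the 10 with the largest gains among those whose groups do not overlap; bars mark group means. In Mir1936 the wildtype libraries lie between 16.7 and 18.5 CPM and the knockout libraries between 2.18 and 5.93 CPM.

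Among called windows, gains were smaller than the deepest falls. Of these gains Mir3473d, inside Ddx19b, had the largest, from 1.64, 1.02 and 1.77 CPM in wildtype to 3.50, 3.40 and 3.91 CPM in knockout. Every knockout library lay above every wildtype library, with a log2FC of 1.27 (SE 0.32, adjusted p 0.000553). Mir721, inside the homeobox gene Cux1, rose from 6.17 ± 1.44 to 12.03 ± 1.12 CPM (log2FC 0.97, SE 0.16, adjusted p 8.15e-09). Mir361, inside Chm, which encodes a Rab escort protein, rose from 4.25 ± 1.19 to 7.59 ± 0.64 CPM (log2FC 0.84). Mir378a, set within the coactivator gene Ppargc1b and studied for its part in lipid and energy metabolism, held 17.7, 22.1 and 21.6 CPM in wildtype, against 36.6, 35.8 and 30.6 CPM in knockout. That gain had no overlap between groups (log2FC 0.75), and 80.6% of the window was shared, so it rests on the remaining stretch.

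Mir688 (log2FC 1.16), Mir692-1 (1.03) and Mir3109 (0.54) also rose, with 73.4%, 59.7% and 56.3% of their windows shared. For Mir692-1, one of several copies in the genome, the sources used here do not give how reads matching more than 1 copy were counted. Mir1198 rose from 1.66 ± 0.62 to 3.16 ± 0.58 CPM (log2FC 0.94, adjusted p 0.0205). This call was lost without wildtype replicate 1 (adjusted p 0.243), without wildtype replicate 3 (0.088), with library totals alone (0.0717), and using only libraries 2 and 3 of both groups (0.144).

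Mir99a and Mirlet7c-1 are made from one long noncoding transcript on chromosome 16, and Mir125b-2 lies further along it. Mir125b-2 (chr16:77643273-77646343) held 45.6, 50.9 and 45.5 CPM in wildtype, against 77.2, 67.2 and 64.1 CPM in knockout. The knockout libraries were all higher, with a log2FC of 0.56 (SE 0.11, adjusted p 8.88e-06), and the window shares no base with another. Mir99a rose from 1.54, 3.96 and 2.78 CPM to 5.73, 6.81 and 5.26 CPM (log2FC 1.12, SE 0.23, adjusted p 1.05e-05) in its unshared 721 bases. Mirlet7c-1, measured in the 750 bases at the hairpin end of the same pair, was at 3.06 ± 1.01 and 3.16 ± 0.52 CPM, with overlapping groups and a log2FC of 0.06 (adjusted p 0.908). The count ratio of Mir99a to Mirlet7c-1 was 0.652, 0.939 and 1.07 in wildtype and 1.56, 2.59 and 1.65 in knockout, without overlap. The log2 difference of 1.12 had an exact two-sided permutation p of 0.1, the smallest that 3 against 3 allows, and the ratio was chosen after its values were seen.

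Families whose mature sequence is made at several loci were compared locus by locus. There were 22 sets of loci that encode an identical mature sequence and had at least 2 tested loci in separate clusters. In 5 sets every tested locus was lower, in 0 every locus was higher, in 0 the calls went both ways, in 3 some loci were called in one direction and in 14 none was. For sets sharing a seed the numbers were 6 of 50 with every locus lower, 3 with calls both ways, 17 with some and 24 with none. The 2 kinds of set overlap, since the miR-9, miR-138, miR-196a and miR-199 loci count as lower in both. By quartile of accessibility, 1.13% to 43.8% of all windows were lower. The share for sets of other windows of like accessibility was not computed, so whether families differ from it was not tested.

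miR-9, one of the main microRNAs of neural progenitors and neurons, comes from 3 loci on different chromosomes. Mir9-1 (chr3:88212598-88215686) was measured only in the unshared stretch that ends with its hairpin (chr3:88215258-88215686). It held 10.9, 8.76 and 10.04 CPM in wildtype, against 4.36, 3.11 and 4.40 CPM in knockout, a log2FC of -1.32 (SE 0.18, adjusted p 4.17e-12). Mir9-2 (chr13:83735814-83738885) held 15.6, 15.9 and 16.1 CPM and then 11.1, 9.50 and 9.11 CPM, a log2FC of -0.68 (SE 0.14, adjusted p 6.39e-06). Mir9-3 (chr7:79502264-79505353) held 15.5, 9.71 and 11.2 CPM and then 7.22, 6.09 and 6.18 CPM, a log2FC of -0.91 (SE 0.16, adjusted p 5.43e-08). At all 3 loci the knockout libraries lay below the wildtype libraries. With loess, Mir9-1 stayed lower (-0.87) while Mir9-2 (-0.22, adjusted p 0.151) and Mir9-3 (-0.42, adjusted p 0.0559) did not pass.

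miR-196, which represses Hox genes, is encoded inside 3 Hox clusters. Mir196a-1 in the Hoxb cluster (chr11:96262164-96265265) held 15.6, 13.8 and 14.5 CPM in wildtype, against 6.48, 6.57 and 6.24 CPM in knockout (log2FC -1.19, SE 0.15, adjusted p 5.24e-14). Mir196a-2 in the Hoxc cluster (chr15:102970350-102973434) went from 13.7 ± 0.54 to 8.18 ± 1.17 CPM (-0.75, adjusted p 2.57e-06), and Mir196b in the Hoxa cluster (chr6:52230081-52233165) from 17.3 ± 1.79 to 10.9 ± 0.80 CPM (-0.66, adjusted p 5.66e-06). None of these groups overlapped. Of the 6 microRNAs inside Hox clusters, 5 were tested and 4 were lower, the fourth being Mir10b in the Hoxd cluster with 12.99 ± 0.97 and 6.59 ± 0.83 CPM (log2FC -0.98). Mir10a in the Hoxb cluster was at 3.78 ± 0.62 and 3.25 ± 0.17 CPM and did not pass (adjusted p 0.575). The median of the 5 was -0.75. They lay in the 2 middle quartiles of accessibility, where 32.0% and 43.8% of all windows were lower and the median over all windows was -0.26 and -0.19. Under loess the calls of Mir196a-2 (adjusted p 0.124) and Mir196b (0.165) were lost.

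The other sets with every tested locus lower had 2 loci each. miR-138 is best known from neurons, where it limits the size of dendritic spines. Mir138-1 went from 5.84 ± 0.88 to 2.84 ± 0.73 CPM (log2FC -1.04) and Mir138-2 from 14.9 ± 1.02 to 9.25 ± 1.38 CPM (-0.69). Mir199b (-1.06) and Mir199a-1 (-0.57), which lie opposite to the strand of the dynamin genes Dnm1 and Dnm2, were both lower, as were Mir344-2 (-1.81) and Mir344 (-0.76) on chromosome 7. Mir344c on the same chromosome, which shares their seed but not the whole mature sequence, had 0.71 (adjusted p 0.0948) and was higher under loess (0.76, adjusted p 0.011). Mir193a (-0.37) and Mir193b (-0.52) share a seed on chromosomes 11 and 16, and Mir149 (-0.85) and Mir1943 (-0.79) share the seed AGGGAGG of 1 of their arms. With loess, Mir138-1, Mir199b, Mir344-2, Mir193a and Mir149 kept their calls, while Mir138-2 (adjusted p 0.191), Mir199a-1 (0.454), Mir344 (0.131), Mir193b (0.051) and Mir1943 (0.0954) lost theirs. The call of Mir193a was also lost without wildtype replicate 1 (adjusted p 0.0792) and without knockout replicate 3.

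**Figure D3:**
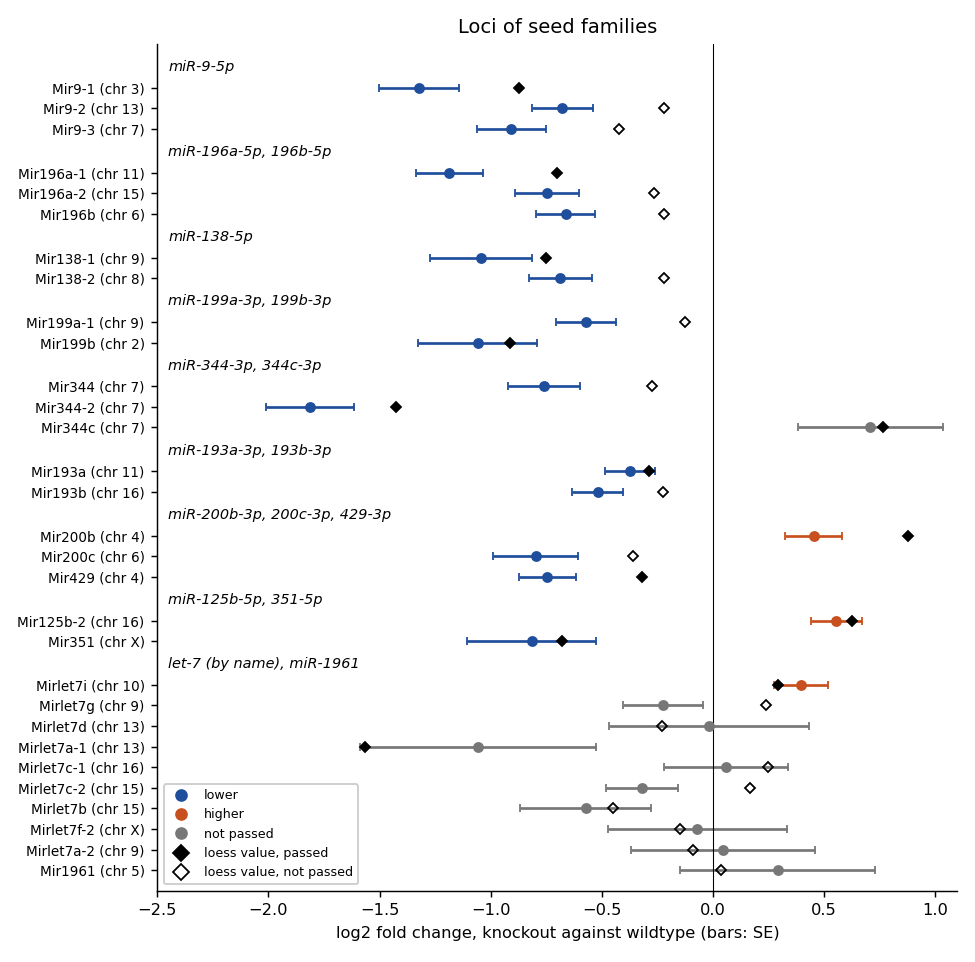
Log2FC of knockout over wildtype at each tested locus of families that share a seed (circles with SE bars, coloured by call), with the value under loess normalisation as diamonds. The 3 loci of miR-9 lie at -1.32, -0.68 and -0.91 and the 3 loci of miR-196 at -1.19, -0.75 and -0.66, while the loci of miR-200b, miR-200c and miR-429 lie on both sides of 0, as do those of miR-344 and miR-344c.

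The sets with calls both ways were 3. Mir125b-2 rose (above), while Mir351, of the same seed on the X chromosome, fell from 3.77 ± 0.06 to 2.14 ± 0.07 CPM (log2FC -0.81, adjusted p 0.0217). The call of Mir351 was lost on leaving out any 1 wildtype library (adjusted p 0.0808, 0.0923 and 0.0985) or knockout replicate 2 (0.0641). Mir3473d rose and Mir1947 fell (log2FC -0.70, adjusted p 0.0247), and Mir674 with the same seed did not pass. The fall of Mir1947 was lost under library totals, loess and DESeq2 and without wildtype replicate 1, wildtype replicate 2 or knockout replicate 2, with adjusted p up to 0.221.

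The third set is the miR-200 family, the microRNAs that hold epithelial cells in the epithelial state by repressing Zeb1 and Zeb2. Its 5 genes form a cluster of Mir200b, Mir200a and Mir429 on chromosome 4 and one of Mir200c and Mir141 on chromosome 6, and their windows overlap so much that Mir200a, wholly covered, had 0 counts in all libraries. Mir200b was measured in the 765 bases of its window farthest upstream (chr4:156057986-156058750) and held 11.3, 16.2 and 11.8 CPM in wildtype, against 21.0, 15.5 and 16.8 CPM in knockout. Knockout library 2 lay below wildtype library 2, and the log2FC was 0.45 (SE 0.13, adjusted p 0.00259). Mir429 was measured in the 991 bases that end with its hairpin (chr4:156053905-156054895) and held 20.8, 17.3 and 21.9 CPM in wildtype, against 13.2, 11.6 and 10.9 CPM in knockout. These groups did not overlap, with a log2FC of -0.74 (SE 0.13, adjusted p 7.85e-08). The rise of Mir200b was lost without wildtype replicate 3 (adjusted p 0.0898), without knockout replicate 1 (0.111), and using only libraries 2 and 3 of both groups (0.280).

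On chromosome 6 the order was the other way round. Mir200c, measured in the 405 bases farthest upstream (chr6:124720986-124721390), held 6.61, 8.31 and 7.80 CPM in wildtype, against 5.10, 3.94 and 3.97 CPM in knockout. Groups were separated (log2FC -0.80, SE 0.19, adjusted p 0.000215), but the call was lost under loess (-0.36, adjusted p 0.122). Mir141, measured in the 408 bases that end with its hairpin (chr6:124717914-124718321), held 14.8, 17.4 and 16.4 CPM in wildtype, against 20.9, 20.5 and 20.5 CPM in knockout. All knockout libraries were higher (log2FC 0.35, SE 0.12, adjusted p 0.0183). These were the only 2 of the 68 clusters with calls in both directions. Only a cluster with at least 2 calls can show this. The others of that kind were Mir193b with Mir365-1 and Mir3065 with Mir338, with 2 lower and 0 higher in each. The count ratio of Mir429 to Mir200b was 1.84, 1.07 and 1.86 in wildtype and 0.627, 0.750 and 0.651 in knockout, and that of Mir200c to Mir141 was 0.448, 0.478 and 0.477 against 0.244, 0.192 and 0.194. The log2 differences of -1.19 and -1.16 do not depend on the scaling of libraries. Each had an exact two-sided permutation p of 0.1, the smallest possible here, for ratios chosen after their values were seen.

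**Figure D4:**
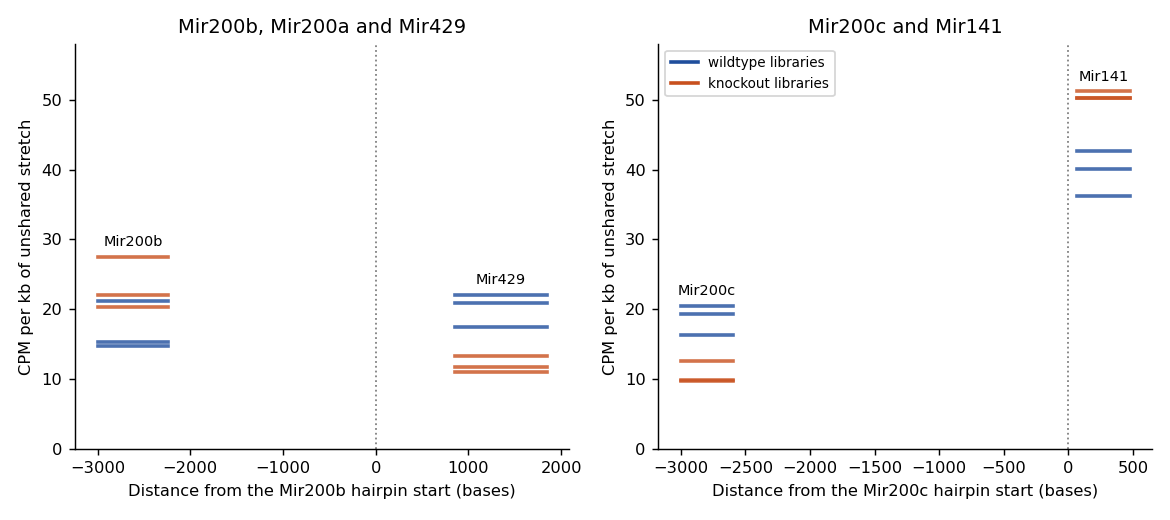
CPM per kb of the stretch of each miR-200 window that no other window shares, placed by distance from a hairpin start in the direction of transcription; each line is 1 library. The knockout lines lie below the wildtype lines at Mir429 and Mir200c, above them at Mir141, and overlap with them at Mir200b.

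Other microRNAs of epithelia were open and mostly not called. Mir205, abundant in stratified epithelia and studied in thymic epithelium, was at 60.4 ± 6.14 CPM in wildtype, against 61.3 ± 2.54 CPM in knockout, with overlapping groups (log2FC 0.02, SE 0.11, adjusted p 0.908). Mir203, which promotes keratinocyte differentiation, was at 121 ± 1.02 and 134 ± 18.5 CPM (adjusted p 0.395). Mir34a, a target of p53, fell from 16.2, 15.5 and 15.1 CPM to 9.28, 7.47 and 8.68 CPM, with no overlap (log2FC -0.88, adjusted p 6e-09). Of the 10 epithelial microRNAs 9 were tested, 3 were lower (33.3%), 2 were higher (22.2%) and the median was 0.02, where 4 of the 9 lay in the quartile with 43.8% of all windows lower. Of 11 listed for work on thymic epithelium, 7 were tested and 0 were called, with a median of 0.19. Of these 7, 5 lay in the lowest quartile of accessibility. There 1.13% of all windows were lower and 2.08% higher, with a median of 0.37. Summed levels of the 11 were 78.1 to 101 CPM in wildtype, against 92.7 to 98.9 CPM in knockout. Mir155, among them and known from activated immune cells, was at 22.9 ± 5.12 and 26.0 ± 0.75 CPM (log2FC 0.19, adjusted p 0.235), and passed under loess (0.50, adjusted p 0.00991) and without wildtype replicate 2 (adjusted p 0.0429).

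Of the 10 most open microRNA windows, 3 were called, Mir5107 lower and Mir148a and Mirlet7i higher. The 10 lay in the most open quartile, where 3.87% of all windows were lower and 9.36% higher. Mir5107, inside Cd74, the invariant chain that accompanies MHC class II, held 325, 274 and 286 CPM in wildtype, against 263, 220 and 200 CPM in knockout. The groups did not overlap (log2FC -0.37, adjusted p 0.0166), but the call was lost under RLE size factors (adjusted p 0.0905) and without wildtype replicate 1 (0.209), knockout replicate 2 (0.114) or knockout replicate 3 (0.134). The promoter window of Cd74 was at 382 ± 15.3 and 367 ± 41.3 CPM. Mir148a, which represses the DNA methyltransferase gene Dnmt1, rose from 83.9, 87.6 and 78.3 CPM to 138, 106 and 106 CPM, with no overlap (log2FC 0.48, SE 0.12, adjusted p 0.000378). Mir21a, raised in many cancers and inflamed tissues, was at 148 ± 24.0 and 180 ± 20.8 CPM (log2FC 0.28, adjusted p 0.0798). It passed in 6 of 14 alternatives, among them DESeq2 (adjusted p 0.0418). Mir210, the microRNA of the hypoxia response, was at 141 ± 15.3 and 133 ± 20.1 CPM (adjusted p 0.658), and was lower under loess (adjusted p 0.00606) and without knockout replicate 1 (0.0292). Mir5133, Mir5103 and Mir1981 had log2FC values of 0.12, -0.02 and 0.02 and did not pass, and Mir1893 had 0.29 with an adjusted p of 0.0591 and passed in 9 of 14 alternatives, with adjusted p down to 0.000224.

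let-7 microRNAs, which accumulate as cells differentiate and are blocked by LIN28, were tested at 9 of 12 windows. Of these, 1 was higher (11.1%) and 0 were lower, with a median of -0.07, where 6.36% of all windows were higher and 20.2% lower. Of the 9, 4 lay in the lowest quartile of accessibility, with 2.08% of all windows higher and 1.13% lower. Mirlet7i on chromosome 10 held 94.5, 115 and 94.8 CPM in wildtype, against 152, 126 and 122 CPM in knockout, with no overlap (log2FC 0.40, SE 0.12, adjusted p 0.00599). It did not pass without wildtype replicate 1 (adjusted p 0.103). The other let-7 windows had far lower CPM, with Mirlet7g at 7.19 ± 0.95 and 6.15 ± 0.71 CPM and Mirlet7c-2 at 9.03 ± 0.29 and 7.24 ± 0.34 CPM, and neither passed. Mirlet7c-2 and Mirlet7b lie within 3.80 kb and their windows overlap, so the level of Mirlet7c-2 covers only its unshared part.

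Neuronal and endocrine microRNAs were followed because mTECs are known to express genes of many tissues. Of 21 windows on this list 18 were tested, 5 were lower (27.8%), 1 was higher (5.56%) and the median was -0.33. Over all windows 20.2% were lower and 6.36% higher, and in the quartile of accessibility that held 11 of these 18 the share lower was 32.0% and the median -0.26, so the list was near the background. The lower windows were the 3 miR-9 loci, Mir124a-2 and Mir153. Mir124a-2 (chr3:17792662-17795770), a locus of the most abundant microRNA of neurons, held 4.61, 4.41 and 3.37 CPM in wildtype, against 1.20, 0.90 and 2.45 CPM in knockout. Its groups did not overlap (log2FC -1.45, SE 0.31, adjusted p 1.8e-05), and the windows of Mir124a-1 and Mir124a-3, covered by others, had 0 counts. Mir153, inside the neuroendocrine vesicle gene Ptprn2, went from 4.64 ± 0.81 to 2.44 ± 0.39 CPM (log2FC -0.93, adjusted p 0.00194). Mir375, a microRNA of pancreatic islets and other endocrine cells, rose from 63.5, 64.8 and 61.0 CPM to 95.6, 80.3 and 73.9 CPM (log2FC 0.40, SE 0.12, adjusted p 0.0032), with every knockout library higher.

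Among 10 microRNAs of liver, gut and pancreas, 7 were tested, 2 were lower (28.6%) and 1, Mir148a, was higher (14.3%), with a median of 0.48. Over all windows 20.2% were lower and 6.36% higher. Of the 7, 5 lay in the lowest quartile of accessibility, where the median over all windows was 0.37. Mir802 (chr16:93366720-93369816), known from liver and glucose metabolism, held 37.4, 37.5 and 42.5 CPM in wildtype, against 24.2, 18.2 and 20.2 CPM in knockout. There was no overlap (log2FC -0.91, SE 0.12, adjusted p 5.52e-14). Mir192, abundant in gut, liver and kidney, had 1.69 ± 0.36 and 0.69 ± 0.02 CPM in the small unshared part of its window (log2FC -1.27, adjusted p 0.035), a call lost on leaving out any library but knockout replicate 1 (adjusted p 0.0607 to 0.182). Mir122, the dominant liver microRNA, was at 0.95 ± 0.18 and 1.35 ± 0.43 CPM and did not pass. On the list for muscle 6 of 10 were tested, for sensory organs 5 of 5 and for multiciliated cells 2 of 5, and 0 were called on each, with medians of 0.11, -0.13 and -0.46. In the lowest quartile lay 5 of the 6 for muscle, 3 of the 5 for sensory organs and 1 of the 2 for multiciliated cells. There 1.13% of all windows were lower and 2.08% higher. Mir449c and Mir34b, from loci active in multiciliated cells, were at 1.24 ± 0.46 and 1.77 ± 0.48 CPM in knockout against 1.56 ± 0.04 and 2.68 ± 0.88 CPM in wildtype. Of 12 microRNAs of pluripotent and germ cells 0 passed the filter and 8 had 0 counts. They lie in the clusters from Mir290a to Mir295 and from Mir302b to Mir367. There 5 and 3 windows lay wholly inside others, and 5 and 3 had 0 counts. These zeros therefore do not show that the loci were closed.

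MicroRNAs of cells that a sort can carry along were followed the same way. Mir142, a microRNA of blood cells, was open in both groups, at 83.8, 76.7 and 75.8 CPM in wildtype, against 116, 95.2 and 82.2 CPM in knockout. Knockout library 3 lay within the wildtype range, with a log2FC of 0.31 (SE 0.12, adjusted p 0.0346), and the call was lost without wildtype replicate 1 (adjusted p 0.0724), wildtype replicate 3 (0.0689), knockout replicate 1 (0.0961) or knockout replicate 2 (0.0847). Of the 6 markers of leukocytes and red cells 3 were tested and 1 was called higher (33.3%, against 6.36% of all windows). The summed level of the 6 was 83.6 to 92.8 CPM in wildtype, against 89.0 to 122 CPM in knockout. Mir223, a defining microRNA of neutrophils, had at most 0.49 CPM in a library. Its window overlaps that of F630028O10Rik, so this level covers only the unshared part. Of 8 markers of endothelium and mesenchyme 7 were tested and 3 were lower (42.9%, all 7 being in the 2 quartiles with 32.0% and 43.8% of all windows lower), with a median of 0.09 and sums of 72.2 to 77.8 CPM and 67.4 to 69.1 CPM. Mir126a, inside the endothelial gene Egfl7, held 12.3, 11.2 and 11.4 CPM in wildtype, against 3.95, 5.02 and 5.08 CPM in knockout, with no overlap (log2FC -1.32, SE 0.17, adjusted p 6.28e-14). Mir199b and Mir199a-1 were the other 2. The summed endothelial marker windows were also lower in every knockout library, as given above, and their part in the fall of Mir126a was not tested. Of 16 immune microRNAs 9 were tested, Mir142 was the 1 called, and the median was 0.01. That is 11.1% higher and 0 lower, against 6.36% and 20.2% over all windows.

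The largest clusters gave few counts. The cluster from Mir669e to Mir669h inside Sfmbt2 on chromosome 2 had 40 members, of which 29 lay wholly inside others and 0 were tested, and its summed level was 1.74 ± 0.50 CPM in wildtype, against 2.99 ± 1.02 CPM in knockout. The cluster from Mir379 to Mir3072 in the imprinted Dlk1-Dio3 region of chromosome 12 had 38 members and 1 was tested. That member, Mir3072 at the far end, held 7.53, 5.11 and 7.38 CPM in wildtype, against 2.18, 2.27 and 3.06 CPM in knockout. The groups did not overlap (log2FC -1.42, SE 0.23, adjusted p 4.2e-09). In the neighbouring cluster from Mir770 to Mir3071, 3 of 15 were tested and 0 were called. The cluster from Mir743 to Mir465 on the X chromosome had 3 of 18 tested and 0 called. The cluster from Mir290a to Mir295, typical of embryonic stem cells, had 0 of 7 tested, with 5 wholly inside others. The cluster from Mir450b to Mir322 had 2 of 7 tested with Mir351 lower. Of the 15 members in clusters of the Mir17 family, which drive proliferation, only Mir17 was tested, in 180 unshared bases, at 15.4 ± 1.80 and 16.1 ± 2.96 CPM (log2FC 0.07, adjusted p 0.752). It passed under loess (0.49, adjusted p 0.00682).

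Host genes were compared with the microRNAs they carry. There were 363 pairs of a microRNA and a counted host on the same strand, and the windows overlapped in 84. Of the pairs without overlap, 194 had both windows tested, at a median distance of 31.5 kb. Host promoters were lower in 37 of the 194 (19.1%) and higher in 12 (6.19%). Among the 29 pairs whose microRNA window was lower, 6 hosts were lower (20.7%), 0 were higher and 23 did not pass. Among the 6 with a higher microRNA window, 2 hosts were higher. The log2FC values of the 2 windows had a Pearson r of 0.09 and a Spearman rho of 0.12 across these 194 pairs, which share libraries and, for some, a host.

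Both kinds of pair occurred among the deepest falls. Grid1, the host of Mir346 at a distance of 69.5 kb, fell from 60.8 ± 7.36 to 15.9 ± 1.96 CPM (log2FC -1.93, adjusted p 3.01e-57), and Tcf20, the host of Mir3080, from 10.7 ± 1.81 to 3.62 ± 0.74 CPM (-1.57). At Mir1936 the host promoter of Itpk1, 14.8 kb away, was at 90.7 ± 2.65 and 88.3 ± 10.4 CPM (log2FC -0.04, adjusted p 0.846). Shank2, 163 kb from Mir3105, was at 3.25 ± 0.12 and 2.69 ± 1.28 CPM and did not pass, nor did Klhl3 for Mir874 (log2FC 0.70, adjusted p 0.186) or Egfl7 for Mir126a (-0.23, adjusted p 0.58). The noncoding hosts of miR-9 fell with their microRNAs: Gm3764 for Mir9-1 (-0.97), C130071C03Rik for Mir9-2 (-0.83) and Mir9-3hg for Mir9-3 (-0.48). For the gains, Chm with Mir361 (0.33) and Gripap1 with Mir1198 (0.42) were higher, and Cux1 with Mir721 (0.26, adjusted p 0.109) and Ddx19b with Mir3473d (0.05, adjusted p 0.845) did not pass.

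**Figure D5:**
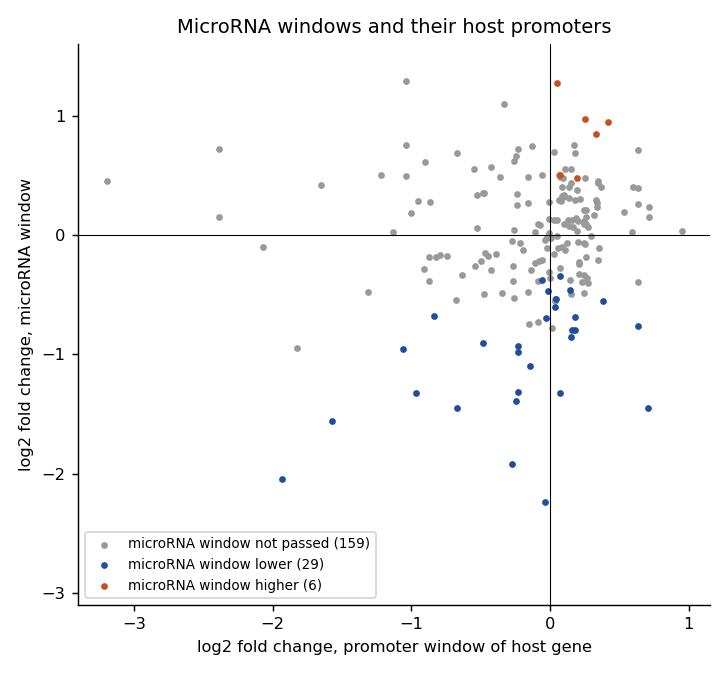
Log2FC of the microRNA window against that of its host gene's promoter window, for 194 pairs whose windows do not overlap, coloured by the call of the microRNA window. Of the 29 lower microRNA windows, 6 have a host that was also lower and 23 a host that did not pass.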

How the data were processed

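Chromatin accessibility was measured in 6 libraries of 75-base paired-end reads. The authors deposited whole-number counts per gene window made with featureCounts (build mm10), as the submitters' processing notes list. The sources used here do not give the aligner, the treatment of duplicates and multi-mapping reads, or any shift for the transposase. Counts of all 27095 windows were analysed with edgeR 4.0.16 in R 4.3.3 (filterByExpr, TMM, robust quasi-likelihood test, Benjamini-Hochberg adjustment), and SE was computed from the log2FC and F statistic. The biological coefficient of variation was 10.9%. Symbols came from each library's own table. Hairpins, hosts and mature sequences came from RefSeq (GRCm38.p6), and scripts were tested on simulated data. Named windows were the 10 largest falls and gains with separated groups, the 10 most open, up to 4 per list of 14 lists, and calls in the 6 largest clusters; loci of families, and those outside this rule, were named after their values were seen. Members, lists and rule were chosen with earlier results of these data known. Counting limits cover counting error only. Alternatives were RLE, library totals and loess scaling (limma 3.58.1), other filters, DESeq2 1.42.0, a replicate block and left-out libraries.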

Additional observations from a re-analysis of the deposited data

How the results depend on the processing

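The 68 lower windows ranged from 57 to 78 over other scalings, filters, tests and designs with all members, and the 19 higher windows from 18 to 28 except for 51 under loess. Leaving out 1 library gave 56 to 80 lower and 14 to 36 higher, the highest in both cases without knockout replicate 1. Over all windows the same settings gave 16.9% to 22.6% lower and 2.73% to 12.6% higher, also highest without knockout replicate 1. Only windows sharing no base gave 49 lower and 12 higher of 298 tested, and windows holding no start of another gene gave 59 and 17. The median log2FC lay between -0.09 and 0.03 on leaving out 1 library and was -0.19 with a mean count of at least 50. No microRNA window called by TMM was called in the opposite direction under any of these settings. Of 50 named called windows, 32 kept their call in every alternative, and loess took it from 10. The deviations of same-numbered libraries had correlations of 0.374, 0.0284 and 0.389, against -0.445 to 0.308 for libraries of unlike number. Of 6 libraries, 5 correlated best with their own number. The labels do not say that the numbers pair the libraries, so the main test did not use them. A fit with the replicate block gave 76 lower and 28 higher and lost no named call. A count of 0 allows 3 counts, at least 0.154 CPM here.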

Other observations

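MicroRNA windows were also compared by where they lie. Of 248 tested windows inside a gene on their own strand, 41 (16.5%) were lower and 9 higher. Of 52 inside a gene on the opposite strand only, 14 (26.9%) were lower and 1 was higher. Of 94 outside other genes, 13 (13.8%) were lower and 9 (9.57%) higher, with a median log2FC of -0.02. The difference between these groups was not tested. On the X chromosome, 29 of 77 windows were tested, 1 was lower (3.45%) and 2 were higher (6.90%), at a median level of 0.87 CPM. Of 365 tested autosomal windows 67 were lower (18.4%) and 17 higher (4.66%), at a median of 2.67 CPM. These medians lie in the 2 lowest quartiles, where 1.13% and 32.0% of all windows were lower and 2.08% and 4.77% higher. The difference between the X chromosome and autosomes was not tested.

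Some host promoters fell while the microRNA window inside the gene did not pass. Of the 159 such pairs without overlap, 31 hosts were lower (19.5%), near the 19.1% over all 194 pairs. The pairs below were picked after their values were seen. Mir3099, Mir598 and Mir488 had means of 0.87, 1.80 and 1.07 CPM, in the lowest quartile of accessibility. There only 1.13% of all windows were lower and 2.08% higher. Mir3086 had a mean of 2.72 CPM. The promoter of Usp29, an imprinted gene, went from 61.6 ± 10.1 to 6.77 ± 3.88 CPM (log2FC -3.19, adjusted p 0.000662), while Mir3099, 67.8 kb away, had a log2FC of 0.45 (adjusted p 0.564). Xkr6 fell from 71.1 ± 6.94 to 20.1 ± 2.95 CPM (-1.82), and Mir598 within it had -0.94 (adjusted p 0.0618). Hspa12a fell from 34.6 ± 6.27 to 11.0 ± 1.03 CPM (-1.65), with Mir3086 at 0.42 (adjusted p 0.326). Astn1, a neuronal migration gene, fell from 6.19 ± 0.25 to 1.49 ± 1.00 CPM (-2.07), with Mir488 at -0.10 (adjusted p 0.907).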
